A study of Danio rerio with 7 samples.

Results

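The cytochrome P450 (CYP) genes and the genes of the aryl hydrocarbon receptor (Ahr) pathway were examined in PAC2 cells, a permanent wild type cell line from zebrafish embryos. The members were every gene ID of the deposited matrix whose Ensembl name begins with cyp and a family number, begins with ahr or tiparp, or is arnt, arnt1, arnt2, aip or por. The cyp51 gene of cholesterol synthesis was left out. This rule, which uses names and no measured value, found 37 of the 17570 gene IDs in the matrix, namely 27 P450 genes and 10 Ahr pathway genes, with por, the electron donor of P450 enzymes, counted with the Ahr pathway. Another 59 IDs with such names, of 96 in all, were not analysed here.

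RNA was sequenced from unexposed wild type cells on day 14 after seeding, in the stationary phase of population growth (3 libraries, replicates 1, 2 and 4), and on day 8, in the exponential phase (4 libraries, replicates 1 to 4). Replicates were separate cultures of different passages that were started on different days. The cells are from 1 line, and no library comes from cells given an Ahr ligand or any other chemical. The medium was renewed on day 7, so time since fresh medium and growth phase cannot be told apart.

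P450 enzymes are heme proteins that insert oxygen into their substrates. In vertebrates, members of families 1 to 4 mostly oxidise foreign compounds, fatty acids and eicosanoids, whereas other families make or degrade steroid hormones, retinoic acid, sterols and bile acids. Ahr is a ligand-activated transcription factor that waits in the cytosol with chaperones and moves to the nucleus when it binds dioxin-like or polyaromatic compounds. There it pairs with its partner Arnt and induces CYP1 genes, its own repressor and tiparp. In zebrafish, Ahr2 is the receptor known for mediating dioxin toxicity.

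Levels are given as CPM, a gene's count over the total of its library brought to the usual common unit, with library totals scaled by trimmed-mean (TMM) factors. As CPM is not divided by transcript length, tests compared each gene with itself between the growth phases. Where a ratio or share between genes is given, it is one of reads, set beside the same ratio or share in the other phase, and says nothing of how many transcripts each gene had. Library totals ranged from 11252559 to 33414743 estimated counts, so that 1 count was worth 0.03 to 0.0773 CPM. A difference was called where edgeR's quasi-likelihood test gave a Benjamini-Hochberg adjusted p under 0.05 over all 17570 genes. Log2 differences are day 14 minus day 8. Since whole cultures were sequenced, fewer cells of a type and less RNA per cell cannot be told apart.

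Of 37 members, 4 rose and 2 fell on day 14. The genes that rose were cyp2ad3, cyp2v1 and both IDs named cyp8b1, and those that fell were the receptor gene ahr1b and cyp2aa7. The 6 calls are 16.2% of the members, against 25.3% of all genes tested, of which 12.0% were higher and 13.3% lower. All day 14 libraries lay above all day 8 libraries for 7 members and below them for 6, and this lack of overlap was found for 34.8% of all genes. The median log2 difference was 0.0069 over the members and 0.0032 over all genes, and the median size of the difference without its sign was 0.46 over the members and 0.39 over all genes.

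**Figure D1:**
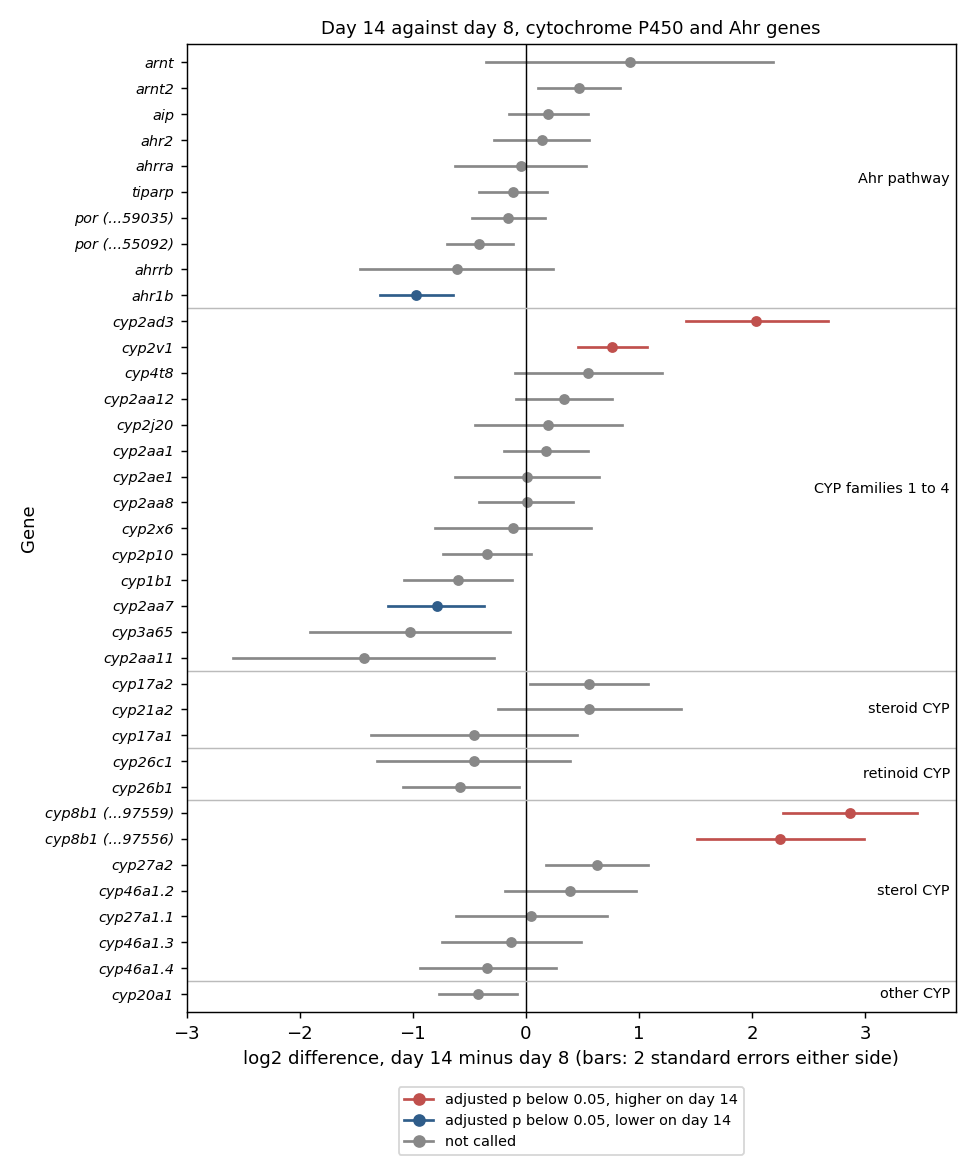
Log2 difference (day 14 minus day 8) of each of the 37 members, grouped by family, with bars of 2 standard errors on each side. Both cyp8b1 IDs (2.87 and 2.25) and cyp2ad3 (2.04) stood furthest above 0, and ahr1b (-0.97) was the member of the Ahr pathway furthest below it.

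Of the Ahr receptor genes, ahr1b fell and ahr2 did not pass the test. The ahr1b gene, which encodes a receptor paralog of the AHR1 type, had 12.6, 10.5 and 10.2 CPM in the day 14 libraries, against 22.2, 24.1, 22.0 and 18.6 CPM in the day 8 libraries. Every day 14 library was below every day 8 library, and the log2 difference was -0.97 (SE 0.16, edgeR adjusted p = 0.00146). The ahr2 gene had 111, 97.0 and 92.3 CPM on day 14, against 131, 89.7, 65.1 and 79.3 CPM on day 8. Its day 14 values lay inside the day 8 range, and its log2 difference of 0.14 (edgeR adjusted p = 0.676) had an interval of 2 standard errors from -0.28 to 0.56.

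The RefSeq annotation of assembly GRCz12tu places ahr1b and ahr2 next to each other. Within a library, the CPM of ahr1b was 0.113, 0.109 and 0.11 of that of ahr2 on day 14, and 0.17, 0.269, 0.337 and 0.235 of it on day 8. This ratio of reads, which was chosen after the values of both genes were seen, was lower in each day 14 library than in each day 8 library (log2 difference -1.15, exact two-sided permutation p = 0.0571, the smallest that the 35 splits of 3 against 4 libraries allow). The third receptor gene of this name family, ahr1a, was not analysed here.

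The partner and chaperone genes of the receptor did not pass the test. For arnt2, which encodes an Arnt-type dimer partner, 27.0, 23.9 and 27.4 CPM were measured on day 14, against 20.9, 18.1, 13.8 and 22.8 CPM on day 8. All day 14 libraries were above all day 8 libraries, with a log2 difference of 0.47 (SE 0.18, edgeR adjusted p = 0.0777). For arnt, the other partner, the values were 1.77, 0.466 and 1.44 CPM on day 14 and 1.24, 0.148, 0.326 and 1.02 CPM on day 8, and both phases spread over a wide and shared range (log2 difference 0.92, SE 0.64, edgeR adjusted p = 0.320).

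The aip gene encodes the Ahr-interacting cochaperone. It had 135, 172 and 161 CPM on day 14 and 107, 122, 167 and 147 CPM on day 8, with overlapping phases and a log2 difference of 0.20 (edgeR adjusted p = 0.445). With replicate number as a block, which compares cultures of the same passage and start day, aip was called higher (log2 difference 0.32, edgeR adjusted p = 0.0403). Day 8 replicate 3, the highest day 8 library of aip at 167 CPM, has no day 14 partner and does not enter that difference. Leaving it out without the block also gave 0.32, but no call (edgeR adjusted p = 0.169). The block called 6431 of all 17570 genes, against 4445 in the fit without it. The aip gene was higher on day 14 in replicates 1, 2 and 4, by 1.26-fold, 1.41-fold and 1.09-fold.

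The genes that restrain Ahr signalling did not pass the test either. The repressor gene ahrra had 4.50, 3.73 and 2.93 CPM on day 14, against 4.48, 2.81, 5.49 and 2.77 CPM on day 8 (log2 difference -0.046, edgeR adjusted p = 0.929). The second repressor gene, ahrrb, was among the weak members, with 22, 7 and 10 estimated counts on day 14 and 9, 30, 10 and 22 on day 8. These correspond to 0.66, 0.408 and 0.532 CPM on day 14 and 0.695, 1.11, 0.544 and 0.938 CPM on day 8, values that overlapped (log2 difference -0.61, SE 0.43, edgeR adjusted p = 0.324).

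The tiparp gene is an Ahr target whose product, a mono-ADP-ribosyltransferase, dampens Ahr activity in mammals. It was measured at 245, 238 and 197 CPM on day 14, against 263, 240, 251 and 224 CPM on day 8. The phases overlapped, and the log2 difference of -0.11 (edgeR adjusted p = 0.626) had an interval of 2 standard errors from -0.41 to 0.19.

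The por gene, whose product passes electrons from NADPH to the P450s of the endoplasmic reticulum, was listed under 2 IDs. ENSDARG00000055092 had 294, 290 and 292 CPM on day 14, against 408, 418, 370 and 352 CPM on day 8. All day 14 libraries were below all day 8 libraries, but the log2 difference of -0.41 (SE 0.15) had an edgeR adjusted p of 0.0647. It was called lower with replicate number as a block, with an edgeR adjusted p of 0.0109.

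The other por ID, ENSDARG00000059035, had 74.0, 81.8 and 67.4 CPM on day 14, against 99.6, 80.1, 85.7 and 67.2 CPM on day 8, and these overlapped (log2 difference -0.16, edgeR adjusted p = 0.514). A division of reads between the IDs was not tested, so their sum was also taken. It was 368, 372 and 360 CPM on day 14, against 507, 498, 456 and 419 CPM on day 8, again without overlap. ENSDARG00000055092 made up 78.0% to 81.3% of this sum on day 14 and 80.4% to 84.0% on day 8, so the sum largely repeats that ID.

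**Figure D2:**
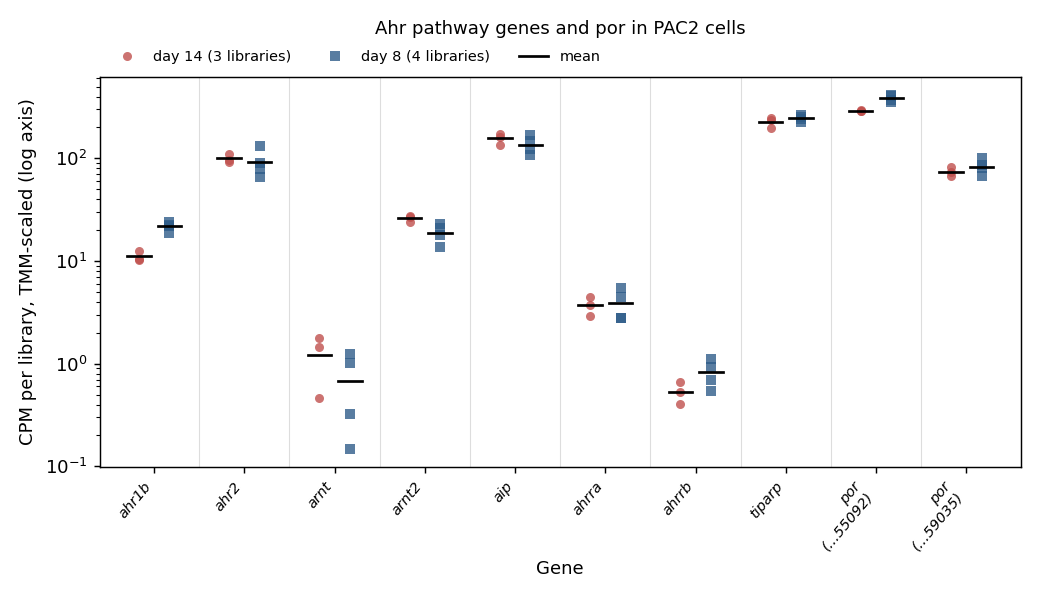
CPM of the 10 Ahr pathway members in each library on a log axis, with day 14 as circles and day 8 as squares, and the mean of each phase as a bar. The phases of ahr1b (10.2 to 12.6 CPM on day 14, 18.6 to 24.1 CPM on day 8) stood apart, whereas those of ahr2 and tiparp overlapped.

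Across the 10 Ahr pathway members, 1 fell, none rose and 9 did not pass the test, with a median log2 difference of -0.079. Both por IDs, at -0.41 and -0.16, are counted in this median. The share called was 10.0%, against 25.3% of all genes. Of 16 genes known as Ahr targets outside the members, 6 were analysed and 1 of these, ugt1b1, a glucuronosyltransferase gene, rose. It had 17, 10 and 24 estimated counts on day 14 and 0 in all 4 day 8 libraries, which makes it at least 4.99-fold higher on day 14 against a mean floor of 3 counts per day 8 library (edgeR adjusted p = 0.00172). The target gene nqo1, a quinone reductase, averaged 12.8 ± 2.54 CPM on day 14 and 11.5 ± 2.76 CPM on day 8 (SD, n = 3 and 4, edgeR adjusted p = 0.663). Of 6 chaperone genes of the receptor, hsp90ab1 and cdc37 were analysed and neither passed the test.

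CYP families 1 to 4 were represented by 14 genes of 54 with such names: 1 of 5 in family 1, 11 of 40 in family 2, 1 of 5 in family 3 and 1 of 4 in family 4. Among them, 2 rose, 1 fell and 11 did not pass the test, so that 21.4% were called, against 25.3% of all genes. Their median log2 difference was 0.01, or -0.16 without TMM scaling, which moved the median of all genes to -0.17. The family 1 gene analysed was cyp1b1, an Ahr target that in mammals oxidises polyaromatic compounds and estradiol. The cyp1b1 gene had 5.55, 4.90 and 9.10 CPM on day 14, against 9.81, 10.8, 11.3 and 7.63 CPM on day 8.

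Day 14 replicate 4 of cyp1b1 lay within the day 8 range and the other day 14 libraries lay below it (log2 difference -0.60, SE 0.24, edgeR adjusted p = 0.0856). Without that library the log2 difference was -0.91 and the edgeR adjusted p was 0.0262. Leaving out any other single library gave no call, with a log2 difference of -0.44 (edgeR adjusted p = 0.289) without day 14 replicate 2. Paired by replicate number, cyp1b1 on day 14 was 0.565-fold and 0.454-fold of day 8 in replicates 1 and 2, and 1.19-fold in replicate 4.

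In family 2, cyp2aa7 fell. It belongs to the cyp2aa subfamily, a group of fish genes with several neighbouring copies in zebrafish. The gene had 111, 113 and 89.0 CPM on day 14, against 178, 131, 252 and 163 CPM on day 8. Every day 14 library was below every day 8 library, with a log2 difference of -0.79 (SE 0.21, edgeR adjusted p = 0.0158). Without day 14 replicate 4 the log2 difference was -0.69 and the call was lost (edgeR adjusted p = 0.0845).

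The other cyp2aa genes analysed were cyp2aa1, cyp2aa8, cyp2aa11 and cyp2aa12, and none passed the test. The weak member cyp2aa11, a direct neighbour of cyp2aa7 in the annotation, had 12, 1 and 6 estimated counts on day 14 and 13, 13, 16 and 13 on day 8. In CPM these were 0.36, 0.0583 and 0.319 on day 14 and 1.00, 0.48, 0.87 and 0.554 on day 8. All day 14 values lay below all day 8 values, yet the log2 difference of -1.43 had an SE of 0.58 and an edgeR adjusted p of 0.0892, and the single count in day 14 replicate 2 has a Poisson 95% interval from 0.0253 to 5.57 counts.

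Log2 differences of the other cyp2aa genes were 0.18 for cyp2aa1, 0.0069 for cyp2aa8 and 0.34 for cyp2aa12, with edgeR adjusted p from 0.271 to 0.985. How alike their transcripts are was not examined, so a division of reads among them was not tested. The 5 cyp2aa genes together had 133, 136 and 110 CPM on day 14, against 201, 150, 270 and 182 CPM on day 8, and these sums did not overlap. Of these, cyp2aa7 alone had 111, 113 and 89.0 CPM on day 14, against 178, 131, 252 and 163 CPM on day 8. The separation of the sums therefore largely repeats that of cyp2aa7. Further cyp2aa IDs of the name table were not analysed here.

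A pair of neighbouring family 2 genes rose. For cyp2ad3, which belongs to a fish subfamily related to the CYP2J epoxygenases of mammals, 2.97, 6.41 and 4.68 CPM were measured on day 14, against 1.24, 0.887, 1.03 and 1.36 CPM on day 8. The lowest day 14 library was above the highest day 8 library, and the log2 difference was 2.04 (SE 0.31, edgeR adjusted p = 7.89e-04). The difference by replicate was uneven, at 2.40-fold, 7.23-fold and 3.43-fold in replicates 1, 2 and 4.

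Next to it in the annotation lies cyp2v1, a fish family 2 gene. It had 28.8, 37.8 and 30.8 CPM on day 14, against 18.9, 18.5, 20.5 and 18.4 CPM on day 8. The day 8 libraries were close to each other and all below the day 14 libraries (log2 difference 0.76, SE 0.15, edgeR adjusted p = 0.00325).

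Among the remaining family 2 genes, cyp2ae1, cyp2j20, cyp2p10 and cyp2x6 did not pass the test, with log2 differences from -0.34 to 0.20 and edgeR adjusted p from 0.226 to 0.982. Only for cyp2p10 were the phases separate, with 4.31 to 4.89 CPM on day 14 and 5.07 to 6.64 CPM on day 8. The genes cyp2p10 and cyp2j20 are neighbours in the annotation.

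For families 3 and 4, 1 gene each was analysed. The cyp3a65 gene, of the family that oxidises many drugs and steroids, had 0.66, 0.524 and 0.585 CPM on day 14, against 2.16, 0.924, 0.815 and 1.07 CPM on day 8. These rest on 22, 9 and 11 estimated counts on day 14 and 28, 25, 15 and 25 on day 8. All day 14 libraries were lower, but the log2 difference of -1.02 (SE 0.44) did not pass the test (edgeR adjusted p = 0.110). The cyp4t8 gene, of the fatty acid hydroxylase family and a neighbour of arnt, had 2.79, 2.45 and 2.34 CPM on day 14, against 2.47, 1.44, 0.979 and 2.09 CPM on day 8, with overlapping phases (log2 difference 0.55, edgeR adjusted p = 0.244).

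**Figure D3:**
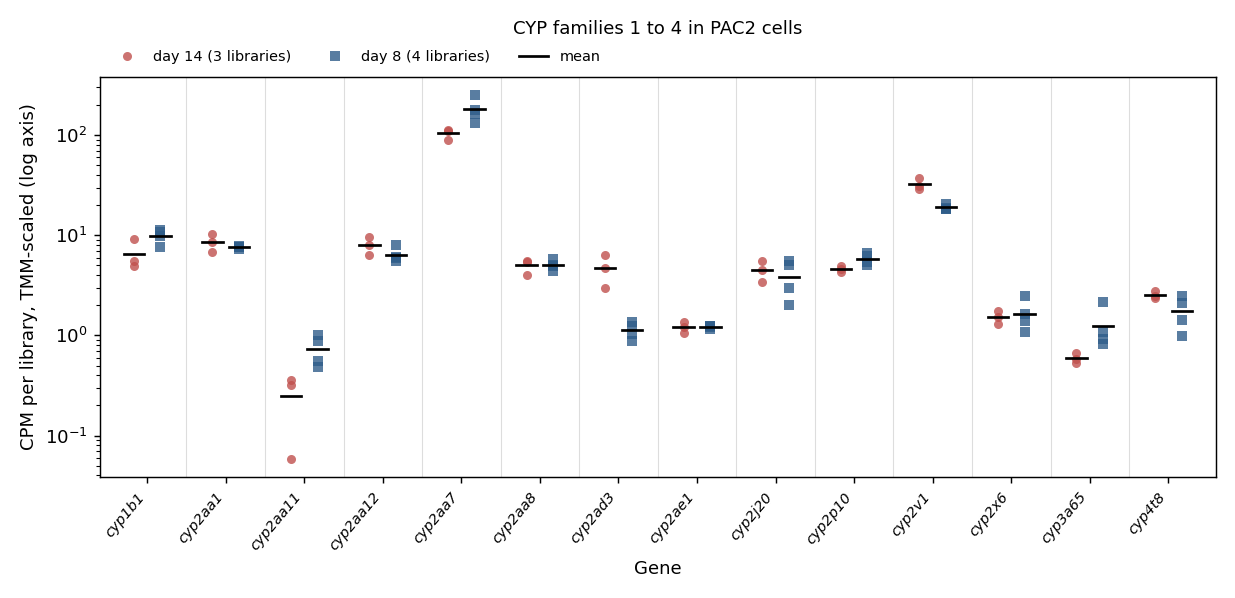
CPM of the 14 genes of CYP families 1 to 4 in each library on a log axis, with day 14 as circles, day 8 as squares and the mean of each phase as a bar. The cyp2ad3 and cyp2v1 points of day 14 lay above those of day 8, and the cyp2aa7 points of day 14 (89.0 to 113 CPM) lay below those of day 8 (131 to 252 CPM).

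Summed over the 14 genes, families 1 to 4 had 184, 199 and 171 CPM on day 14, against 247, 194, 320 and 225 CPM on day 8, a ratio of means of 0.75 with overlapping phases. The sum followed cyp2aa7, which made up 52.1% to 59.9% of these reads on day 14 and 67.5% to 78.8% on day 8. Without cyp2aa7, the other 13 genes summed to 73.9, 85.7 and 81.7 CPM on day 14, against 68.3, 62.9, 67.8 and 62.3 CPM on day 8, a ratio of 1.23 in the opposite direction. Of these 13 genes, only cyp2v1 and cyp2ad3 rose, and the other 11 did not pass the test and differed in both directions. Mean CPM on day 14 and day 8 was 32.5 and 19.1 for cyp2v1, and 4.69 and 1.13 for cyp2ad3. The sums were not tested.

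The steroid, retinoid and sterol families were represented by 12 genes of 30 with such names. Of these, 2 rose, none fell and 10 did not pass the test, so that 16.7% were called, against 25.3% of all genes. The median log2 difference was 0.22. Both genes that rose were listed as cyp8b1, the sterol hydroxylase that in mammalian liver sets the share of cholic acid among the bile acids. ENSDARG00000097559 had 10.0, 15.5 and 20.9 CPM on day 14, against 1.70, 1.70, 1.74 and 3.20 CPM on day 8. The phases were far apart, with a log2 difference of 2.87 (SE 0.30, edgeR adjusted p = 1.07e-04).

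The other cyp8b1 ID, ENSDARG00000097556, had 2.70, 3.38 and 6.92 CPM on day 14, against 0.618, 0.997, 1.2 and 0.767 CPM on day 8. Again no library overlapped with the other phase, and the log2 difference was 2.25 (SE 0.37, edgeR adjusted p = 0.00119). Day 14 values spread by more than those of day 8 for both IDs, with replicate 4 highest. The IDs share a name in the name table used here, whereas the paper lists cyp8b1.2 and cyp8b1.3 as separate genes. Another ID of this name was not analysed here. A division of reads between the 2 analysed IDs was not tested, so their sum was also taken. It was 12.7, 18.9 and 27.8 CPM on day 14, against 2.32, 2.70, 2.94 and 3.97 CPM on day 8, a ratio of 6.64.

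Of 8 hepatocyte markers, 1 was analysed, and this gene, tfa, was at 0.63 to 1.11 CPM on day 14 and 0.309 to 0.81 CPM on day 8. The bile acid receptor gene nr1h4 fell in the same libraries to 1.47, 0.699 and 1.22 CPM on day 14, against 3.86, 4.17, 4.62 and 6.48 CPM on day 8 (log2 difference -2.05, SE 0.31, edgeR adjusted p = 7.79e-04). Whether its change bears on cyp8b1 was not tested.

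The other sterol genes did not pass the test. The cyp27a2 gene, of the family of mitochondrial sterol hydroxylases, had 5.82, 5.24 and 4.42 CPM on day 14, against 3.63, 2.59, 3.26 and 3.92 CPM on day 8. All day 14 libraries were higher, with a log2 difference of 0.63 (SE 0.22, edgeR adjusted p = 0.0576). Its relative cyp27a1.1 had a log2 difference of 0.05 (edgeR adjusted p = 0.932), with 1.52 to 1.76 CPM on day 14 and 1.19 to 2.39 CPM on day 8.

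The 3 cyp46a1 copies, which lie side by side in the annotation, are named for the cholesterol hydroxylase known from mammalian brain. For cyp46a1.2, 5.28, 8.80 and 7.29 CPM were measured on day 14, against 4.48, 4.14, 8.70 and 4.31 CPM on day 8. Day 8 replicate 3 lay among the day 14 libraries and the other day 8 libraries lay below them (log2 difference 0.39, edgeR adjusted p = 0.348). Without day 8 replicate 3 cyp46a1.2 was called higher (log2 difference 0.72, edgeR adjusted p = 0.0332). A block by replicate number called it higher too (log2 difference 0.71, edgeR adjusted p = 0.0169). As day 8 replicate 3 has no day 14 partner, it does not enter that difference, so this call is not separate from the first. Leaving out any other single library gave no call, with a log2 difference of 0.22 (edgeR adjusted p = 0.699) without day 14 replicate 2. The log2 differences of cyp46a1.3 and cyp46a1.4 were -0.13 and -0.34, with overlapping phases and edgeR adjusted p of 0.803 and 0.453.

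Of the steroid hormone genes, cyp17a2, a steroid hydroxylase gene, had 3.21, 3.32 and 4.26 CPM on day 14, against 1.85, 2.29, 2.34 and 3.20 CPM on day 8. The phases were separate by a narrow margin, and the log2 difference of 0.56 (SE 0.26) did not pass the test (edgeR adjusted p = 0.137). The other steroid genes were weak members. The hydroxylase and lyase gene cyp17a1 had 17, 7 and 14 estimated counts on day 14 and 13, 23, 15 and 10 on day 8 (log2 difference -0.46, edgeR adjusted p = 0.498).

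The cyp21a2 gene, needed for cortisol synthesis, had 28, 24 and 13 estimated counts on day 14 and 9, 21, 11 and 13 on day 8. In CPM these were 0.839, 1.40 and 0.692 on day 14 and 0.695, 0.776, 0.598 and 0.554 on day 8, with a narrow overlap (log2 difference 0.56, edgeR adjusted p = 0.346). The 6 markers of steroid-producing cells, which include the side-chain cleavage genes of family 11, were not analysed here.

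Family 26 degrades retinoic acid. The cyp26b1 gene had 6.15, 5.30 and 4.84 CPM on day 14, against 11.9, 8.20, 7.28 and 5.33 CPM on day 8. The phases overlapped through day 8 replicate 4 (log2 difference -0.58, SE 0.26, edgeR adjusted p = 0.120). The gene was called lower without that library (log2 difference -0.74, edgeR adjusted p = 0.048) and with replicate number as a block (log2 difference -0.59, edgeR adjusted p = 0.0346). Leaving out any other single library gave no call, with a log2 difference of -0.35 (edgeR adjusted p = 0.28) without day 8 replicate 1.

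The weak member cyp26c1 had 27, 11 and 8 estimated counts on day 14 and 11, 22, 11 and 29 on day 8 (log2 difference -0.46, edgeR adjusted p = 0.463). Of 20 genes of retinoid handling, 5 were analysed and 1 was called, where 25.3% of all genes were called. This 1, the retinoic acid receptor gene raraa, rose, with a mean of 8.87 ± 2.19 CPM on day 14 and 3.69 ± 0.951 CPM on day 8 (SD, n = 3 and 4, log2 difference 1.27, edgeR adjusted p = 0.003).

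The cyp20a1 gene encodes a P450 without a settled substrate. It had 67.2, 81.1 and 81.9 CPM on day 14, against 78.5, 98.4, 124 and 111 CPM on day 8. Only day 8 replicate 1 lay within the day 14 range (log2 difference -0.42, SE 0.17, edgeR adjusted p = 0.0934). The gene was called lower without that library (edgeR adjusted p = 0.024) and with replicate number as a block (log2 difference -0.32, edgeR adjusted p = 0.0397). Leaving out any other single library gave no call, with a log2 difference of -0.34 (edgeR adjusted p = 0.265) without day 14 replicate 1.

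**Figure D4:**
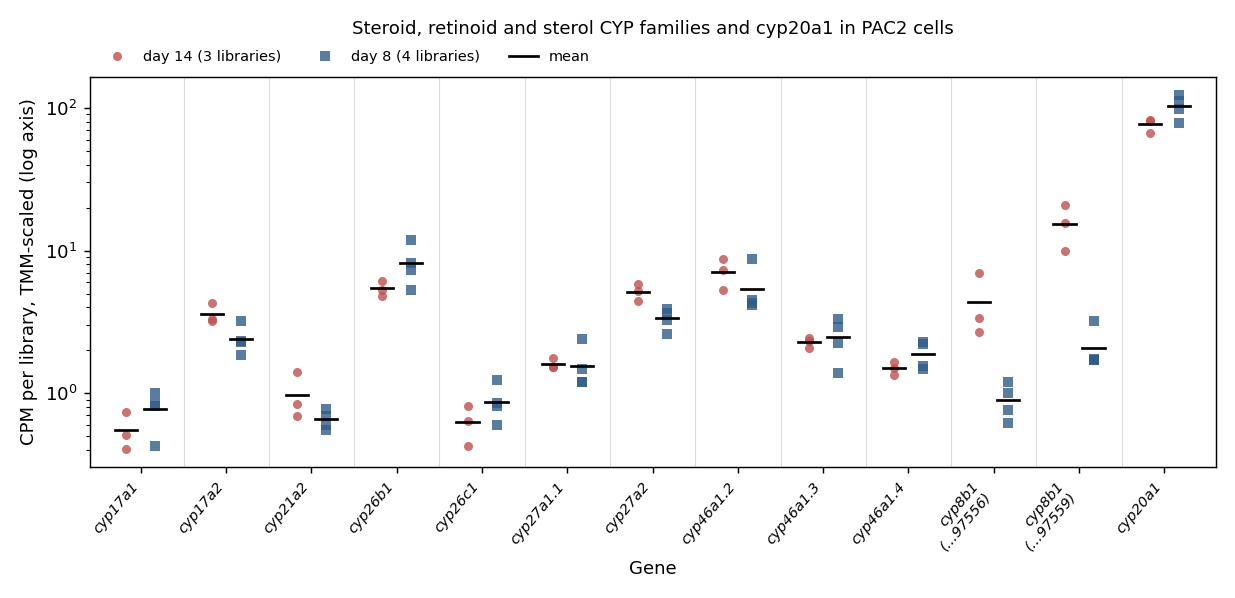
CPM of the 12 genes of the steroid, retinoid and sterol CYP families and of cyp20a1 in each library on a log axis, with day 14 as circles, day 8 as squares and the mean of each phase as a bar. Both cyp8b1 IDs were higher in each day 14 library, and most other genes had overlapping phases.

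Summed over the 12 genes, the steroid, retinoid and sterol families had 40.4, 49.2 and 56.3 CPM on day 14, against 32.0, 27.6, 33.3 and 29.3 CPM on day 8, a ratio of 1.59. The excess lay in the cyp8b1 IDs. Without them, the other 10 genes summed to 27.7, 30.3 and 28.5 CPM on day 14, against 29.7, 24.9, 30.3 and 25.4 CPM on day 8, a ratio of 1.05 with overlapping phases.

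Of 12 genes of P450 electron partners, 11 were analysed, of which 1 rose, 3 fell and 7 did not pass the test, where 25.3% of all genes were called. The cytochrome b5 gene cyb5a (log2 difference -0.88) and the reductase genes cyb5r1 (-0.44) and cyb5r2 (-0.78) fell, with edgeR adjusted p of 0.00404, 0.0392 and 0.0133. The heme-binding partner gene pgrmc2 rose (0.57, edgeR adjusted p = 0.0102). The median of the 11 was 0.012.

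Of 16 heme genes, 10 were analysed, of which 2 rose, 3 fell and 5 did not pass the test, where 25.3% of all genes were called. The 3 that fell belong to heme synthesis. The synthesis genes alad (log2 difference -0.42), ppox (-0.17), uros (0.48) and urod (0.13) did not pass the test and went in both directions. The gene of its first enzyme, alas1, had 183, 92.7 and 86.6 CPM on day 14, against 435, 486, 478 and 303 CPM on day 8. Every day 14 library was lower (log2 difference -1.82, SE 0.28, edgeR adjusted p = 7.48e-04). The later genes cpox (-1.0, edgeR adjusted p = 5.81e-04) and fech (-1.26, edgeR adjusted p = 0.0193), the ferrochelatase gene, fell as well.

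On the side of heme breakdown, the oxygenase gene hmox2b (0.85, edgeR adjusted p = 0.0336) and the biliverdin reductase gene blvrb (0.73, edgeR adjusted p = 0.0353) rose. The other biliverdin reductase gene analysed, blvra, averaged 2.33 ± 0.458 CPM on day 14 and 3.79 ± 1.01 CPM on day 8 (SD, n = 3 and 4) and did not pass the test (-0.69, edgeR adjusted p = 0.0848). The median of the 10 heme genes was -0.29. The oxygenase genes hmox1a, hmox1b and hmox2a matched no ID by name and were not analysed here. The values of hmox2b therefore do not stand for the heme oxygenases as a group. The paper lists hmox1a among its top genes that rose towards the stationary phase in both protein and transcript.

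Of 14 xenobiotic receptors and partners, 7 were analysed, of which 1 rose, 2 fell and 4 did not pass the test, where 25.3% of all genes were called. Besides nr1h4, the oxidative stress factor gene nfe2l2b fell (-0.61, edgeR adjusted p = 0.0342), and keap1a, whose product retains such factors, rose (0.66, edgeR adjusted p = 0.0292). The pregnane X receptor gene nr1i2, a regulator of CYP3 genes, did not pass the test (0.27, edgeR adjusted p = 0.59). Of 26 genes of steroid, oxysterol and bile acid handling, 15 were analysed, with a median of -0.42. Of the 15, 1 rose, 2 fell and 12 did not pass the test, where 25.3% of all genes were called. The dehydrogenase genes hsd17b7 (-0.47, edgeR adjusted p = 0.0453) and hsd17b10 (-0.69, edgeR adjusted p = 0.0131) fell and the reductase gene srd5a1 (0.74, edgeR adjusted p = 0.0392) rose.

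Some cell type markers also moved between the growth phases, where 12.0% of all genes were called higher and 13.3% lower. All 7 proliferation markers fell, with a summed level of 877 to 1180 CPM on day 14 and 1890 to 2190 CPM on day 8. Of 12 fibroblast markers, 8 were analysed and 5 of these rose (sums of 4990 to 6720 CPM on day 14 and 2600 to 4820 CPM on day 8). Among those that rose was vim, of which 1 of 2 IDs was analysed. It is a low-level gene, with means of 0.732 CPM on day 14 and 0.257 CPM on day 8 (log2 difference 1.48, edgeR adjusted p = 0.0332). Of 8 epithelial markers, 5 were analysed and 2, cdh1 and krt4, fell, with sums of 4720 to 5360 CPM on day 14 and 4100 to 5270 CPM on day 8. Of 4 endothelial markers, 2 were analysed and 1, kdrl, fell. The 5 leukocyte markers were not analysed here. The part of these changes in the differences of the P450 and Ahr genes was not tested.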

How the data were processed

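The authors obtained gene-level values for 7 libraries by Kallisto pseudo-alignment against Ensembl transcripts (build GRCz11), removed very low-expressed genes with edgeR (4.6.2 per the labels) and deposited estimated counts of 17570 genes. The deposit calls them normalized, but their library totals differ (11252559 to 33414743), so they were not scaled to a common total. The paper describes normalization by transcript length and library size, and whether these values carry a length adjustment was not examined. Pseudo-alignment can divide reads between similar transcripts, and how alike the members' transcripts are was not examined. All 7 columns were mapped to the sample titles. The proteomics measurements were not analysed here.

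Ensembl names were matched to 15073 IDs (85.8%). Gene neighbours were taken from the RefSeq annotation of assembly GRCz12tu, which holds 33 of the 35 distinct member names and was used for names and order only. The rule finds members by name alone, but the rule and the gene lists were set with earlier results of these data known. Some of those results came from a previous analysis of the same files. Values in every library are given for members that passed the test, for Ahr pathway members and for the member with most CPM in each CYP family. Weak members, with a geometric mean under 1 CPM in both phases, are given by their estimated counts. Levels per kilobase had been planned, but no transcript lengths were at hand, so sums of CPM were taken instead.

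After rounding, the counts went into edgeR 4.0.16 under R 4.3.3 (TMM, estimateDisp, robust glmQLFit in its legacy form, glmQLFTest, two-sided) with growth phase as the only term, as in the study's design. Each standard error is the log2 difference divided by the root of its F value. The test was tried on simulated data with known changes. Alternatives (17) were no scaling, median-of-ratios scaling, filters of 1 CPM and 10 counts, fits without robust estimation and in the newer form, DESeq2 1.42.0, limma 3.58.1 on log2(CPM + 1) and log2(CPM + 0.1), a replicate block and leaving out each library. Plots were made in matplotlib 3.10.9 (Python 3.11.15).

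Libraries held 11252559 to 33414743 counts, so 3 counts equal 0.0899 to 0.232 CPM. Intervals on counts cover counting error only. No 2 libraries agreed within sampling noise (lowest chi-square per degree of freedom 14.1). The labels give each replicate its own passage and start day, so equal numbers pair the samples. Correlations of deviations from the phase means were 0.302, -0.121 and 0.376 for replicates 1, 2 and 4 across phases, and -0.329 to 0.339 between different numbers.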

Additional observations from a re-analysis of the deposited data

Results flagged for a closer look

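Among the 4 day 8 libraries, Dixon's test was applied to the CPM of each of the 37 members, and 2 members had a library that stood apart from the others, where chance alone marks about 1 in 20 groups. Day 8 replicate 3 had 8.70 CPM of cyp46a1.2, against 4.14 to 4.48 CPM in the other day 8 libraries. Day 8 replicate 4 had 3.20 CPM of cyp8b1 (ENSDARG00000097559), against 1.70 to 1.74 CPM in the other day 8 libraries, and stayed below the lowest day 14 library (10.0 CPM).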

How the results depend on the processing

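The calls of ahr1b, cyp2ad3, cyp2v1 and both cyp8b1 IDs held under all 17 alternatives, and that of cyp2aa7 was lost only without day 14 replicate 4. The count of 4 members that rose ranged from 4 to 6, and the 2 that fell became 5 without scaling factors and 5 with the replicate block, which pairs cultures by number. Leaving out single libraries gave 2 to 3 that fell. The block called por (ENSDARG00000055092), cyp20a1, cyp26b1, aip and cyp46a1.2 in addition, and changed no other call among the members. Over all 17570 genes the block called 6431, against 4445 in the main fit. Without scaling factors the median of all genes moved to -0.17, 1218 genes were higher and 3258 lower, against 2101 and 2344 with them, and por (ENSDARG00000055092), cyp1b1 and cyp20a1 were called lower in addition. DESeq2 also called por (ENSDARG00000055092) lower (adjusted p = 0.00787), and the newer form of edgeR's fit called cyp27a2 higher (adjusted p = 0.0485).

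Median log2 differences without scaling factors were -0.16 for CYP families 1 to 4, 0.046 for the steroid, retinoid and sterol families and -0.24 for the Ahr pathway. Medians of the Ahr pathway count both por IDs. With the filter of 1 CPM, which removes the weak members, that of the steroid, retinoid and sterol families was 0.40. Leaving out single libraries gave -0.027 to 0.089 for families 1 to 4, 0.13 to 0.31 for the steroid, retinoid and sterol families and -0.17 to 0.044 for the Ahr pathway.

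Signs turned only for members called in neither fit. Without scaling factors log2 differences were -0.062 for ahr2, -0.00035 for cyp2aa1, -0.17 for cyp2aa8, -0.15 for cyp2ae1 and -0.14 for cyp27a1.1. With the replicate block they were 0.16 for ahrra, -0.065 for cyp2aa8, -0.0047 for cyp2ae1, 0.17 for cyp2x6, -0.029 for cyp27a1.1 and 0.10 for cyp46a1.3. With limma, cyp2aa8 was at -0.0042 (pseudocount 1) and -0.0063 (pseudocount 0.1) and cyp2ae1 at -0.0017 (pseudocount 0.1). Leaving out single libraries gave -0.21 to 0.18 for ahrra, -0.07 to 0.14 for cyp2aa8, -0.08 to 0.10 for cyp2ae1, -0.27 to 0.16 for cyp2x6, -0.06 to 0.30 for cyp27a1.1 and -0.31 to 0.045 for cyp46a1.3. The cause was not tested.

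Estimated counts were low for the 5 weak members and in some libraries of other members. On day 8, replicates 1 to 4 had 16, 4, 6 and 24 counts of arnt, and 16, 24, 19 and 32 of cyp2ad3. Of cyp8b1 (ENSDARG00000097556) they had 8, 27, 22 and 18 counts. Division of reads between similar genes was not tested, and the test rests on 3 libraries against 4.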
